A study of Homo sapiens with 4 samples.

Results

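A set of 10 genes of the red cell surface and cytosol was followed in leukemia cells exposed to periplocin, a cardiac glycoside from Cortex periplocae. The genes were AQP1, AQP3, CA1, CA2, KEL, XK, SLC14A1, RHCE, ERMAP and CD59, taken by symbol from the 20348 genes of the count table. The genes were chosen by their counts in periplocin and DMSO in these same libraries, so their changes are given as a description and were not tested.

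Red cells carry carbon dioxide largely as bicarbonate, which carbonic anhydrases make in the cytosol and form back into carbon dioxide in the lung. Aquaporins and the urea transporter let water, glycerol and urea cross the membrane quickly. The same channels and transporters, with surface enzymes, adhesion proteins and complement regulators, carry many of the antigens known as blood groups. Several of these genes are switched on late in red cell development, and some also work in other tissues: CA2 serves osteoclasts and kidney, AQP3 skin and kidney, and CD59 protects nearly every cell from complement.

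The cells were K562, a line from a chronic myeloid leukemia that can make embryonic and fetal hemoglobin, and THP-1, a line from an acute monocytic leukemia, both human. Either line was cultured for 72 h with DMSO, the solvent control, or with periplocin at 100 nM before sequencing of poly-A RNA. There was 1 library for each of the 4 groups, so no difference has a replicate check, and each interval given is a 95% interval for counting error alone. Levels are given as CPM, the counts per 1000000 counts of the library. Fold changes are ratios of counts after TMM scaling, a correction for library depth and composition that edgeR computes.

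Library totals lay between 16381149 and 20622694 counts. The defining markers matched the labels. In DMSO, the 12 erythroid markers summed to 3069 CPM in K562 and 251 CPM in THP-1, where 246 CPM of the sum came from TFRC, which all dividing cells use. The 10 monocyte and macrophage markers summed to 109 CPM in K562 and 849.5 CPM in THP-1. In K562 the erythroid sum was 14159.9 CPM in periplocin, with 11 of the 12 markers at least 2-fold higher, against 10.6% of all genes. Globin genes took 0.188% of K562 counts in DMSO and 1.05% in periplocin. Mitochondrially encoded genes took between 2.07% and 5.62% of the counts of a library. The part that these shifts in the RNA pool have in the values of the 10 genes was not tested. In bulk RNA, more cells that express a gene and more RNA per cell cannot be told apart.

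In K562 all 10 genes were higher in periplocin, and 9 of them at least 2-fold, among them SLC14A1 with 5 and 14 counts and an interval that includes no change. Among all 13075 genes with at least 10 counts in the K562 pair, 10.6% were at least 2-fold higher and 13.1% at least 2-fold lower, or 23.8% in either direction. The median log2 fold change of the 10 genes was 1.68, against -0.02 over all genes. In THP-1 only 7 of the 10 had at least 10 counts in the pair. Of these, AQP1 and CD59 were at least 2-fold higher, SLC14A1 was at least 2-fold lower, and AQP3, CA2, XK and ERMAP were lower by less than 2-fold. Over all 13679 genes of the THP-1 pair, 9.9% were at least 2-fold higher and 12.4% at least 2-fold lower, or 22.3% in either direction, and the median of the 7 genes was -0.70 against -0.03 over all genes. Between the untreated lines, CA2 and SLC14A1 were at least 2-fold higher in THP-1 than in K562. For SLC14A1 this rests on 5 counts in K562 and 15 in THP-1, with an interval that includes no change. ERMAP differed by less than 2-fold and the other 7 genes were at least 2-fold lower. Over all 14137 genes of this pair, 25% were at least 2-fold higher, 22.1% at least 2-fold lower and 47.1% in either direction. Since the genes were chosen by their values, nothing is read from these counts.

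**Figure D1:**
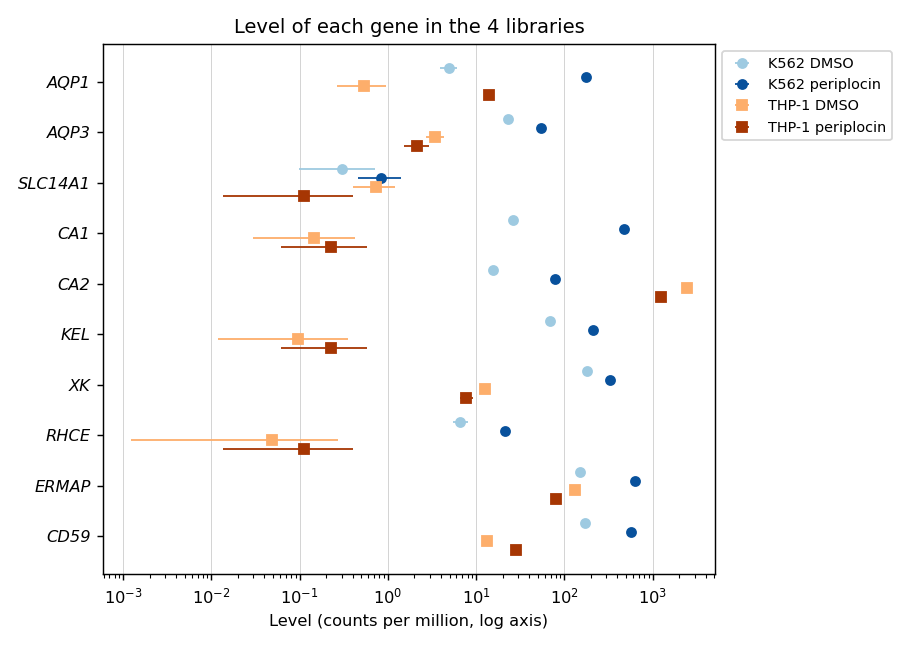
Level of each gene in the 4 libraries, in CPM on a log axis, with bars for the 95% Poisson interval of the count. In K562 every dark blue point (periplocin) lies to the right of its light blue point (DMSO), whereas in THP-1 (squares) CA2 sits at 2432 and 1247 CPM and CA1, KEL and RHCE sit below 1 CPM.

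Promoter sequence was compared for the genes that RefSeq's promoter table (GRCh38.p14) holds, which were 7 of the 10: AQP1, AQP3, KEL, SLC14A1, RHCE, ERMAP and CD59. The 250 bases before each start site were searched on both strands for AGATAA, a form of the site of GATA factors, for CCNCNCCC, a form of the site of KLF factors, and for TGANTCA, shared by NF-E2 and AP-1. The letters AGATAA were found upstream of KEL and RHCE, that is 2 of 7 genes, against 11.1% of the 27305 genes of the table, and in 2 of the 13 promoters of these genes, against 9.17% of all 35116 promoters. The KLF form was found upstream of all 7 genes, against 56.4% of all genes, and in 11 of the 13 promoters, against 53.4% of all promoters. TGANTCA was found upstream of CD59 alone among the 7, against 8.06% of all genes, and in 1 of the 13 promoters, against 6.57% of all promoters. A match is a description of letters and does not show that a factor binds there.

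The 30 bases around 1 match are shown for 5 genes, with the match in capitals, to place the Kell and Rh sites side by side and to show the KLF form at genes with a large difference in K562. RHD, the neighbour and near-copy of RHCE, is the one of the 5 outside the set. Each is written 5′ to 3′ on the strand of the gene.
KEL: cctgagaagctgAGATAAagggggaggaga
RHCE: ccttgcagcctgAGATAAggcctttggcgg
RHD: ccttgcagcctgAGATAAggcctttggcgg
AQP1: tttgtgctccCCCCGCCCCCcggccctata
ERMAP: gcatacagacaGGGTGTGGcttgctggttt

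The KEL stretch lies at chr7:142962408-142962437 on the minus strand, with its match 62 to 57 bases before the RefSeq start. The RHCE stretch lies at chr1:25420884-25420913 on the minus strand and the RHD stretch at chr1:25272421-25272450 on the plus strand, with each match 76 to 71 bases before a start. These 3 stretches fall within an exon of at least 1 GENCODE release 29 transcript. The AQP1 stretch, at chr7:30911797-30911826 on the plus strand, holds a pair of overlapping matches 46 to 37 bases before the start and also lies in an exon of a GENCODE transcript. In ERMAP, at chr1:42825498-42825527 on the plus strand, the match is on the opposite strand, 52 to 45 bases before a downstream start site, outside every GENCODE exon of the gene. Over the 250 bases searched, RHCE and RHD differed at 2 positions and were 99.2% identical.

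Among the water channels, AQP1 was higher in periplocin in both lines. AQP1 (ENSG00000240583; chromosome 7, 30911694 to 30925516, plus strand, GRCh38) encodes the main water channel of the red cell and carries the Colton blood group. It had 80 and 2911 counts in the DMSO and periplocin libraries of K562, and 11 and 250 counts in those of THP-1, or 4.88, 176, 0.533 and 14.1 CPM. In K562 the gene was 35.7-fold higher (log2 fold change 5.16, interval 4.84 to 5.50), the 13th largest of 13075 genes. The THP-1 library in periplocin was 26.7-fold above its control (log2 fold change 4.74, interval 3.87 to 5.76), the 19th largest of 13679. The log2 fold changes differed between the lines by 0.42, with a counting interval of -0.51 to 1.35 that includes 0. In periplocin the AQP1 CPM of K562 was 12.5 times that of THP-1, against 9.16 times in DMSO, so K562 stayed higher. A read-through gene on the same strand, AC004691.2, shares 910 bases of exon with AQP1 and had at most 4 counts in a library.

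AQP3 moved in opposite directions in the lines. AQP3 (ENSG00000165272; chromosome 9, 33441154 to 33447633, minus strand) encodes a channel for water and glycerol that carries the GIL blood group. It had 374 and 900 counts in K562 DMSO and periplocin, and 71 and 38 counts in THP-1. In K562 it was 2.36-fold higher (log2 fold change 1.24, interval 1.06 to 1.42), and in THP-1 it was 1.59-fold lower (log2 fold change -0.67, interval -1.28 to -0.08). The THP-1 interval comes close to 0. In DMSO the K562 CPM was 6.63 times that of THP-1 and in periplocin 25.3 times.

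Of the other 12 aquaporin genes, 10 had at most 7 counts in any library. The remaining 2, AQP10 and AQP11, had at least 10 counts in the K562 pair, and AQP11 alone in the THP-1 pair. AQP10, a further channel for water and glycerol, was lower in K562 periplocin. K562 had 213 counts in DMSO and 64 in periplocin (3.39-fold lower, log2 fold change -1.76, interval -2.19 to -1.35). THP-1 had none, and the floor of 3 counts set for ratios was 0.145 CPM there in DMSO and 0.169 CPM in periplocin.

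SLC14A1 was scarcely expressed. SLC14A1 (ENSG00000141469; chromosome 18, 45687025 to 45752520, plus strand) encodes the urea transporter of the red cell and carries the Kidd blood group. It had 5 and 14 counts in K562 DMSO and periplocin and 15 and 2 counts in THP-1. The K562 log2 fold change was 1.46, with an interval of -0.10 to 3.29 that includes 0, so a difference was not detectable at this depth. In THP-1 the ratio was 6.39-fold lower (log2 fold change -2.68, interval -5.85 to -0.57), and with 2 counts in periplocin its size is poorly known. By the fold alone SLC14A1 was the one gene of the 10 at least 2-fold higher in K562 and at least 2-fold lower in THP-1, as 0.79% of the 12030 genes with at least 10 counts in each pair were.

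The carbonic anhydrases CA1 and CA2 both lie on chromosome 8, and their levels were opposite in the lines. CA1 (ENSG00000133742) encodes the most abundant carbonic anhydrase of adult red cells. It had 427 counts in K562 DMSO and 7808 in K562 periplocin, or 26.1 and 471 CPM, and 3 and 4 counts in the THP-1 libraries. In K562 CA1 was 18.0-fold higher in periplocin (log2 fold change 4.17, interval 4.03 to 4.31). Per kilobase of merged exon it went from the 7th highest of the 10 genes in K562 DMSO, at 6.41 RPKM (CPM per kilobase), to the highest in K562 periplocin, at 116 RPKM. In THP-1 it stayed at the floor of 3 counts or 1 count above, and no change was detectable.

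CA2 (ENSG00000104267) encodes the fast cytosolic enzyme shared by red cells, osteoclasts and kidney. Of the 10 genes, CA2 alone had a higher CPM in THP-1 than in K562 in both DMSO and periplocin. It had 50155 and 22093 counts in the DMSO and periplocin libraries of THP-1, or 2432 and 1247 CPM, against 257 and 1297 counts in K562, or 15.7 and 78.3 CPM. After TMM scaling, untreated THP-1 had 169 times the level of untreated K562 (log2 ratio 7.40, interval 7.22 to 7.58). In periplocin CA2 was 4.96-fold higher in K562 (log2 fold change 2.31, interval 2.11 to 2.51) and 1.94-fold lower in THP-1 (log2 fold change -0.95, interval -0.98 to -0.93). The distance between the lines was therefore smaller in periplocin, where THP-1 had 15.9 times the CPM of K562, against 155 times in DMSO. CA2 made up 93.7% of the summed CPM of the 10 genes in THP-1 DMSO and 2.41% in K562 DMSO. The sum of all 10 genes went from 651 to 2540.02 CPM in K562 and from 2595 to 1379.6 CPM in THP-1, and without CA2 the THP-1 sum was 163 CPM in DMSO and 133 CPM in periplocin.

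Of the other 13 carbonic anhydrase genes, 7 had at least 10 counts in the K562 pair and 5 in the THP-1 pair. In K562, 1 was at least 2-fold higher and 2 were at least 2-fold lower, and the median log2 fold change was -0.19. In the THP-1 pair, 2 were at least 2-fold higher and 1 was at least 2-fold lower, with a median of 0.89. Among all genes, 10.6% were at least 2-fold higher and 13.1% lower in K562, and 9.9% and 12.4% in THP-1. CA13, a cytosolic enzyme, had 299 and 198 counts in K562 and 98 and 308 counts in THP-1, and so was 1.54-fold lower in K562 and 3.69-fold higher in THP-1, the reverse of CA2. CA8, a relative without catalytic activity, had 1674 and 3253 counts in K562 (1.91-fold higher) and 29 and 27 counts in THP-1. CA5B, a mitochondrial enzyme, had 74 and 66 counts in K562 and 139 and 219 in THP-1, and CA11, also catalytically inactive, had 256 and 266 in K562, whereas the THP-1 libraries held 20 and 64 (3.75-fold higher, interval of the log2 fold change 1.16 to 2.71).

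**Figure D2:**
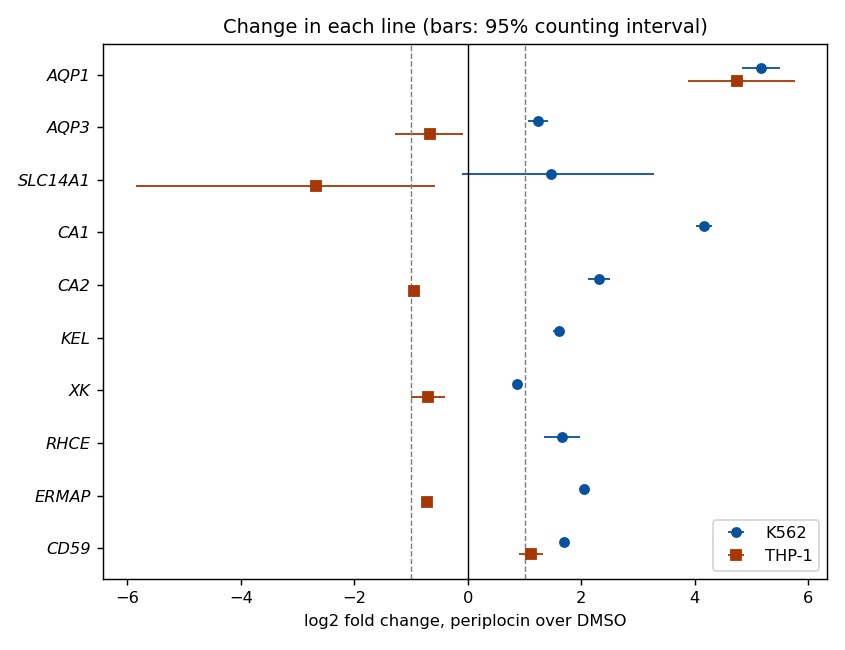
Log2 fold change of each gene, periplocin over DMSO, in K562 (circles) and THP-1 (squares), with bars for the exact 95% counting interval and dashed lines at a 2-fold change. In K562 every point lies to the right of 0, whereas in THP-1 only AQP1 and CD59 do, and CA1, KEL and RHCE have no THP-1 point because they had fewer than 10 counts there.

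KEL and XK encode the partners of one surface complex, joined by a disulfide bond. KEL (ENSG00000197993; chromosome 7, 142941114 to 142962681, minus strand) encodes a zinc endopeptidase that carries the Kell antigens, and XK (ENSG00000047597; chromosome X, 37685756 to 37732130, plus strand) encodes a lipid scramblase that carries the Kx antigen. KEL had 1140 and 3525 counts in K562 DMSO and periplocin, or 69.6 and 213 CPM, and 2 and 4 counts in THP-1. It was 3.04-fold higher in K562 (log2 fold change 1.60, interval 1.51 to 1.70). XK had 2962 and 5469 counts in K562, or 181 and 330.2 CPM, and 261 and 137 counts in THP-1. XK was 1.81-fold higher in K562 (log2 fold change 0.86, interval 0.79 to 0.92), the smallest change of the 10 genes there, and 1.62-fold lower in THP-1 (log2 fold change -0.70, interval -1.01 to -0.40). THP-1 thus held XK at 12.7 CPM in DMSO with its partner gene KEL at or near the floor of 3 counts. Per kilobase of exon, XK was the highest of the 10 genes in K562 DMSO at 34.7 RPKM, with KEL at 17.5 RPKM, and in K562 periplocin they stood at 63.4 and 53.5 RPKM.

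RHCE was a K562 gene of modest level. RHCE (ENSG00000188672; chromosome 1, 25362249 to 25430192, minus strand) encodes the protein with the C, c, E and e antigens of the Rh system. It had 109 and 350 counts in K562 DMSO and periplocin and 1 and 2 counts in THP-1, where no ratio is given. The K562 level in periplocin was 3.15-fold higher (log2 fold change 1.66, interval 1.34 to 1.98). RHCE and RHD are near-identical copies, as their promoters above show, and the deposited RHCE values in K562 were not whole (108.8 and 350.25), and whether reads were divided between the copies is not given in the sources used here. RHD itself had 125 and 547 counts in K562 and was 4.30-fold higher (log2 fold change 2.10, interval 1.82 to 2.40). With RHCE and RHD summed, K562 had 234 and 897 counts, a 3.76-fold difference (log2 fold change 1.91, interval 1.70 to 2.13). A division of shared reads between the copies would leave this sum unchanged. Whether such reads were instead dropped or counted for both copies is not given either. TMEM50A, on the opposite strand, shares 113 bases of exon with RHCE. Its counts were 2833 and 3077 in K562 DMSO and periplocin. In THP-1 they were 1840 and 2017, where RHCE had 1 and 2. Whether the counting used strand is not given in the sources used here.

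Among relatives and partners of the Rh, Kell and XK proteins, 13 of 25 genes had at least 10 counts in the K562 pair, of which 4 were at least 2-fold higher and 2 at least 2-fold lower, and the median log2 fold change was 0.19. In the THP-1 pair, 11 had at least 10 counts, 0 were at least 2-fold higher and 1 was at least 2-fold lower, with a median of 0.04. The shares over all genes were 10.6% higher and 13.1% lower in K562, and 9.9% and 12.4% in THP-1. RHAG, the glycoprotein without which Rh proteins do not reach the membrane, had 7340 and 18767 counts in K562 (2.51-fold higher, interval of the log2 fold change 1.29 to 1.37) and 10 and 5 counts in THP-1. ECE1 and MME, endopeptidases of the same family as KEL, were lower in K562. ECE1 had 870 and 219 counts (4.05-fold lower) and MME had 181 and 86 (2.14-fold lower). VPS13A, the lipid transfer protein that binds XK and is named here outside the rule for named genes, had 3069 and 4039 counts in K562 (1.29-fold higher) and 2690 and 2004 in THP-1 (1.14-fold lower). BTN2A2, a butyrophilin like ERMAP, had 586 and 444 counts in K562 and 139 and 221 in THP-1, opposite in sign to ERMAP in both lines. Other butyrophilins, named here outside the rule for named genes, differed from it. BTN3A3 had the signs of ERMAP, with 46 and 99 counts in K562 and 85 and 59 in THP-1. Its THP-1 interval includes no change. BTN2A1, BTN3A1 and BTN3A2 were 1.10-fold to 1.14-fold higher in K562. In THP-1 BTN2A1 was 1.69-fold higher, and BTN3A1 and BTN3A2 changed by at most 1.03-fold.

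ERMAP stood apart in being at a like level in the untreated lines. ERMAP (ENSG00000164010; chromosome 1, 42817088 to 42844993, plus strand) encodes a butyrophilin-like surface protein that carries the Scianna antigens. It had 2494 and 10470 counts in the DMSO and periplocin libraries of K562, and 2727 and 1411 counts in those of THP-1, or 152, 632, 132 and 79.6 CPM. In DMSO the THP-1 to K562 log2 ratio was -0.08 (interval -0.16 to -0.0035), which moves to -0.20 with total counts in place of TMM. In periplocin ERMAP was 4.12-fold higher in K562 (log2 fold change 2.04, interval 1.98 to 2.11) and 1.65-fold lower in THP-1 (log2 fold change -0.72, interval -0.81 to -0.63). K562 then had 7.94 times the CPM of THP-1. SVBP, on the opposite strand, shares 63 bases of exon with ERMAP and had 192 to 414 counts over the libraries.

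CD59, like AQP1, was higher in periplocin in both lines. CD59 (ENSG00000085063; chromosome 11, 33703010 to 33736491, minus strand) encodes a protein held in the membrane by a glycosylphosphatidylinositol (GPI) anchor, where it blocks the last step of complement attack. It had 2822 and 9320 counts in K562 DMSO and periplocin, or 172 and 563 CPM, and 276 and 507 counts in THP-1, or 13.4 and 28.6 CPM. CD59 was 3.24-fold higher in K562 (log2 fold change 1.70, interval 1.64 to 1.76) and 2.15-fold higher in THP-1 (log2 fold change 1.11, interval 0.89 to 1.32). The log2 fold changes differed by 0.59 (counting interval 0.37 to 0.81).

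Genes of the other complement regulators and of GPI anchor synthesis numbered 31. All had at least 10 counts in the K562 pair, of which 4 were at least 2-fold higher and 2 at least 2-fold lower, and the median log2 fold change was -0.15 against -0.02 over all genes. In the THP-1 pair, 1 of 30 was at least 2-fold higher and 3 were at least 2-fold lower, with a median of -0.24 against -0.03 over all genes. Of all genes, 10.6% were at least 2-fold higher and 13.1% lower in K562, and 9.9% and 12.4% in THP-1. PIGQ, part of the enzyme that starts the anchor, had 638 and 1449 counts in K562 (2.23-fold higher) and 486 and 145 in THP-1 (2.86-fold lower). PIGW, which adds an acyl chain to the anchor, was lower in both lines, with 684 and 392 counts in K562 and 230 and 73 in THP-1. PIGP and PIGX were 2.63-fold and 2.65-fold lower in K562, with 401 and 155 counts and 648 and 249 counts, whereas DPM3, a subunit of the mannose donor enzyme, went from 81 to 211 counts there. CD55 and CD46, complement regulators named here outside the rule for named genes, were higher in both lines. CD55 was 1.36-fold higher in K562 and 2.48-fold higher in THP-1, and CD46 was 2.27-fold and 1.14-fold higher.

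**Figure D3:**
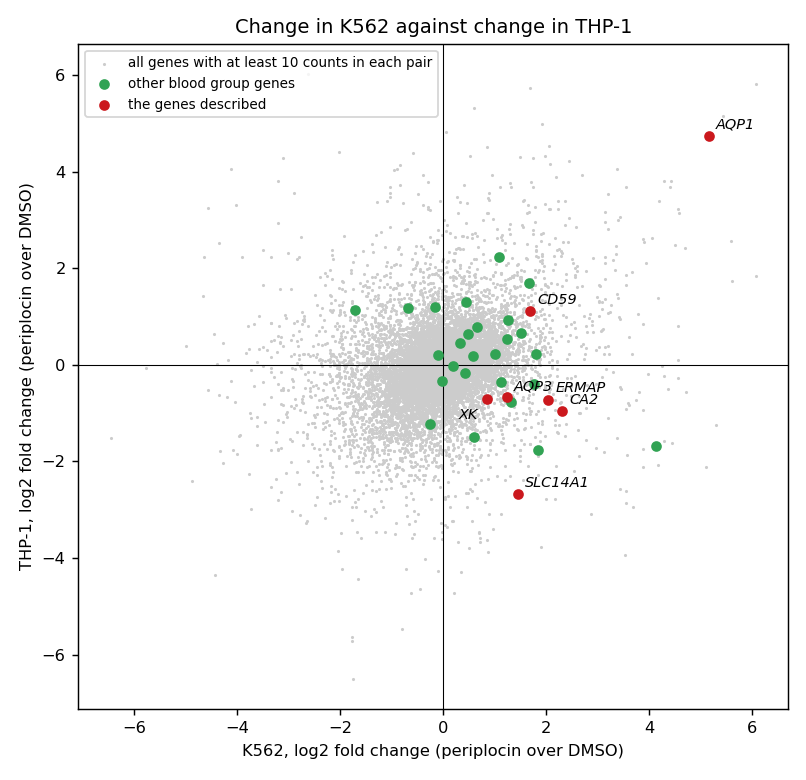
Log2 fold change in THP-1 against log2 fold change in K562, periplocin over DMSO, for 12030 genes with at least 10 counts in each pair (grey), for other blood group genes (green) and for the 7 of the 10 genes that have a value in both lines (red). AQP1 and CD59 lie in the upper right, and XK, AQP3, ERMAP, CA2 and SLC14A1 lie in the lower right.

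AQP3, CA2, XK and ERMAP were thus higher in K562 and lower in THP-1, each with counting intervals on either side of 0. Over the 12030 genes with at least 10 counts in each pair, 19.5% were higher in K562 and lower in THP-1 by any amount, as SLC14A1 was too. The share of all genes that also had intervals on either side of 0 was not computed. The K562 minus THP-1 difference of log2 fold changes was 3.26 for CA2, 2.76 for ERMAP, 1.91 for AQP3 and 1.56 for XK. With 1 library per group these differences were not tested.

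Other blood group genes were mostly higher in K562 and mixed in THP-1. Of 37 such genes, 34 had at least 10 counts in the K562 pair, 18 of these were at least 2-fold higher and 2 at least 2-fold lower, and the median log2 fold change was 1.05. In THP-1, 28 had at least 10 counts, 6 were at least 2-fold higher and 6 at least 2-fold lower, and the median was 0.21. Shares over all genes were 10.6% higher and 13.1% lower in K562, and 9.9% and 12.4% in THP-1. SLC4A1, the anion exchanger band 3 that carries bicarbonate across the red cell membrane and the Diego antigens, had 1257 and 22563 counts in K562 (17.6-fold higher, log2 fold change 4.14, interval 4.06 to 4.22) and 15 and 4 counts in THP-1. ACHE, the acetylcholinesterase that carries the Cartwright antigens, had 234 and 1264 counts in K562 (5.30-fold higher) and 1 count in each THP-1 library. SMIM1, which carries the Vel antigen, had 55 and 200 counts in K562 (3.57-fold higher) and 16 and 4 in THP-1. The genes at least 2-fold lower in K562 were CD44 and FUT1, named after their values were seen, with 29 and 9 counts and with 122 and 46 counts.

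**Figure D4:**
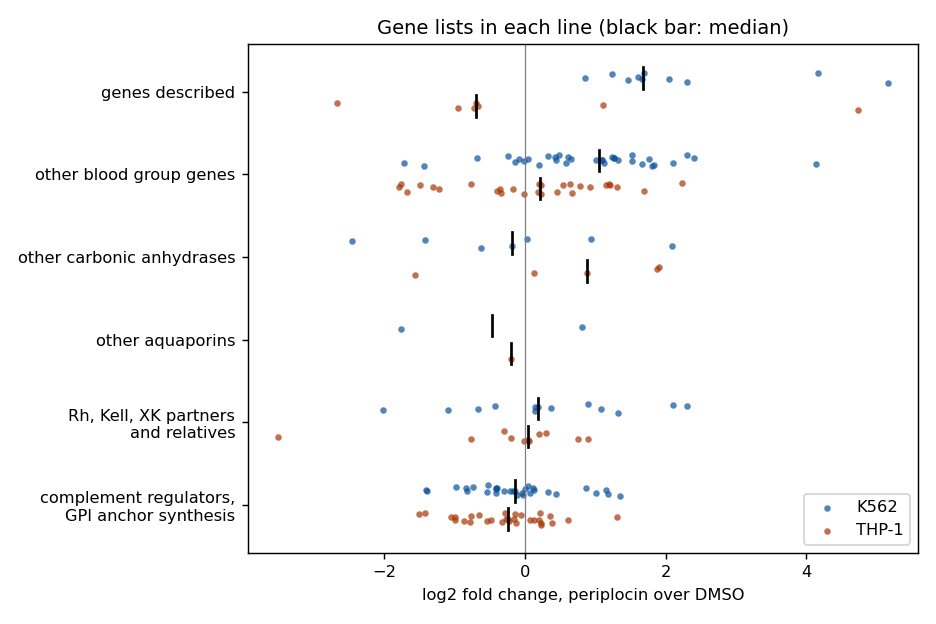
Log2 fold change, periplocin over DMSO, of the 10 genes and of 5 related gene lists in K562 (blue) and THP-1 (red-brown), for genes with at least 10 counts in the pair, with a black bar at each median. The K562 medians are 1.68 for the 10 genes and 1.05 for other blood group genes, and the remaining K562 medians lie between -0.47 and 0.19.

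By level per kilobase of exon, the first of the 10 genes was XK in K562 DMSO and CA1 in K562 periplocin, and CA2 in both THP-1 libraries. In K562 DMSO, XK, ERMAP, KEL and CD59 came first, at 34.7, 26.5, 17.5 and 16.6 RPKM, and the intervals of KEL and CD59 overlapped. AQP3, CA2 and CA1 followed at 7.74, 7.39 and 6.41 RPKM with overlapping neighbours, then RHCE at 2.73, AQP1 at 1.42 and SLC14A1 at 0.0425 RPKM. In K562 periplocin the order was CA1, ERMAP, XK, CD59, KEL, AQP1, CA2, AQP3, RHCE and SLC14A1, from 116 to 0.118 RPKM, and the interval of KEL overlapped those of its neighbours CD59 and AQP1. In THP-1, CA2 and ERMAP were first and second in both libraries, at 1146 and 23.0 RPKM in DMSO and 587 and 13.8 RPKM in periplocin. Behind them AQP1 was 6th in DMSO, at 0.155 RPKM, and 3rd in periplocin, at 4.11 RPKM. The lowest genes of THP-1, among them CA1, KEL and RHCE, could not be ordered, since their intervals overlapped. Exon length here is that of all GENCODE exons of a gene merged, not that of a single transcript.

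The genes most like AQP1 and CD59 over the 4 libraries were found by the Euclidean distance over 3 log2 ratios: the change in each line and the difference between the untreated lines. Among 11975 genes, the nearest to AQP1 were SERPINI1, BCL6 and RAB38, at distances of 2.64, 2.73 and 3.15. SERPINI1 had 239 and 1586 counts in K562 and 48 and 625 in THP-1. The nearest to CD59 were HSPA1A, ZNF280A and H2AC25, at distances of 0.52, 0.54 and 0.56. HSPA1A, a heat shock protein gene with a near-identical copy, had 4940 and 11922 counts in K562 and 550 and 1138 in THP-1.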

How the data were processed

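Poly-A RNA of K562 and THP-1 cells in DMSO or periplocin was sequenced from both ends, and each group is 1 library. The authors deposited 1 table of expected counts, not normalized, for each gene in the 4 libraries, of which 87.4% to 88.3% were exactly whole, zeros included, and 83.1% to 83.9% of those above 0. The submitters' processing notes name HISAT2, StringTie 1.3.1 and hg38. The counting program and annotation are not given in the sources used here. The labels name an Illumina instrument and the methods the T7 platform, and titles call the controls blank where library names say DMSO. The table holds 0 columns that were not used.

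Symbols were matched for 20310 of 20348 genes, and positions and merged exon lengths for 20118 in GENCODE release 29 (GRCh38). CD99 is listed under a pair of identifiers with equal counts and was counted once in its list. Genes listed in this way were not removed from library totals, scaling or the shares over all genes. Counts were rounded, and each pair of libraries was scaled by TMM in edgeR 4.0.16 (R 4.3.3). Ratios carry exact conditional binomial (Clopper-Pearson) intervals and levels exact Poisson intervals, computed in Python 3.11.15 with scipy 1.17.1. Both cover counting error only and treat estimated counts as single reads. Differences between lines carry a normal interval from counting error. A library at 0 was set to a floor of 3 counts, and no ratio was taken where both were at or under it. Genes needed at least 10 counts in the pair to be counted against the 2-fold threshold. No test was run. Ratios and their intervals within each line were checked on simulated counts with Poisson error alone, in which far fewer genes changed than here. Ratios between the lines, the gene lists and the promoter search were not part of that check.

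Members and lists were chosen with earlier results of these data known. Lists, written from general knowledge, cover other aquaporins, other carbonic anhydrases, other blood group genes, relatives and partners of Rh, Kell and XK, complement regulators with GPI anchor synthesis, and markers of erythroid, monocyte, megakaryocyte, lymphoid, endothelial and epithelial cells. Named genes are the 10 members and, from each related list, up to 5 with the largest change among those averaging 5 CPM or more over a pair. Alternatives were other scalings (total counts, total counts without mitochondrial genes, DESeq2 1.42.0 size factors), unrounded counts, other filters, folds of 1.5 and 4 and a prior count of 2. One gene that this rule names is not reported here. Protein sequences were not used here.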

Additional observations from a re-analysis of the deposited data

Results flagged for a closer look

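The level in periplocin was higher in K562 and lower in THP-1, with each counting interval clear of 0, for 4 of the 7 genes with at least 10 counts in each pair. Over all 12030 such genes, 19.5% were higher in K562 and lower in THP-1 by any amount, as SLC14A1 was too. The share of all genes with each interval clear of 0 was not computed. The K562 minus THP-1 difference of log2 fold changes was 1.91 for AQP3 (counting interval 1.32 to 2.51), 3.26 for CA2 (3.07 to 3.46), 1.56 for XK (1.25 to 1.86) and 2.76 for ERMAP (2.65 to 2.88). Each line gave 1 library per condition, and the difference was not tested.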

How the results depend on the processing

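None of the 152 values recomputed for single genes under 3 other scalings and with unrounded counts changed sign, and the largest move was 0.13 on the log2 scale. Total counts moved the median log2 ratio of untreated THP-1 over K562 by -0.12 over all genes, and total counts without mitochondrial genes by -0.13. These scalings and a prior count of 2 left every number of genes past 2-fold within 1.5 times its value, as did a filter of 1 count in the pair. With a fold of at least 4 in place of 2, 4 of the 10 genes were higher in K562 and 1 in THP-1, and over all genes 407 were higher and 486 lower in K562 and 437 higher and 408 lower in THP-1. A fold of at least 1.5 gave 5 of the 10 lower in THP-1, and over all genes 2688 higher and 3061 lower in K562 and 2602 higher and 3119 lower in THP-1. With a mean of at least 1 CPM or 5 CPM, 0 of the 10 were at least 2-fold lower in THP-1, since SLC14A1 drops out, and at 5 CPM 744 of all genes were higher and 914 lower in K562 and 634 higher and 847 lower in THP-1, because fewer genes were counted. No paired analysis was possible because each group has 1 library. Depth limits SLC14A1 in both lines and CA1, KEL and RHCE in THP-1, which had at most 15 counts in a library.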

Other observations

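Markers of other cell types are given here beside the 10 genes. Of the 10 monocyte and macrophage markers, 9 had at least 10 counts in the THP-1 pair, of which 5 were higher and 4 lower in periplocin. CD14, the lipopolysaccharide coreceptor, had 8 and 382 counts in the DMSO and periplocin libraries of THP-1. FCGR1A, a high-affinity antibody receptor, had 1724 and 4006. CD68 had 3069 and 5957, ITGAM 572 and 1063, and SPI1 3702 and 4377. Among the lower markers, MPO, a granule enzyme of early myeloid cells, had 43 and 14. LYZ, lysozyme, had 3962 and 2752, CD33, a sialic acid binding receptor, had 1352 and 760, and CSF1R, the receptor of a macrophage growth factor, had 3086 and 2286. The summed level of the list was 849.5 and 1219 CPM in these libraries, and CD163 had at most 4 counts in any library. In K562 the same list summed to 109 and 126 CPM. Of its 7 markers with at least 10 counts in the K562 pair, 4 were higher and 3 lower, and CD14 had 1 and 69 counts. The 8 megakaryocyte markers summed to 13.9 and 12.6 CPM in K562 and 5.58 and 7.34 CPM in THP-1, with PF4 at 0 in every library. The 6 lymphoid markers summed to no more than 8.73 CPM in a library, with MS4A1 at 0 throughout. The 7 endothelial and epithelial markers summed to 672 and 571 CPM in K562 and 390.5 and 606 CPM in THP-1. Of these, CDH5 was at 0 in every library, while KRT18 had 6466 and 4205 counts in K562 and PECAM1, also a surface protein of monocytes, had 8033 and 10719 in THP-1.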
